A study of Drosophila melanogaster with 2 samples.

Results

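The SOX domain genes of Drosophila melanogaster encode transcription factors that bind DNA through an HMG box, a domain that enters the minor groove and bends the helix. Their binding by the fork head domain protein fd102C was read from chromatin immunoprecipitation and sequencing (ChIP-seq) peak lists. The 8 genes were taken by name, as members of the family: SoxN, D (Dichaete), Sox21a, Sox21b, Sox14, Sox102F, Sox100B and Sox15, out of 13945 protein-coding genes on the main chromosome arms. Of group B (SoxN, D, Sox21a and Sox21b), SoxN and D are known in the embryo for the formation of the neuroectoderm, where they act in part redundantly. The genes outside group B belong to groups C (Sox14), D (Sox102F), E (Sox100B) and F (Sox15). These groups are known mostly from later stages and from organs outside the early nerve cord.

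The material was whole embryos of mixed sex, 2 to 6 h old by their source description, from a stable transgenic line that makes fd102C with GFP joined to its C-terminal end. The samples were 2 biological replicates of 1 group, so there was no contrast between conditions and no untreated group. The labels also call both samples input control, against their assay and antibody fields, and they were read as ChIP. A whole embryo mixes all tissues, so a peak cannot be placed in a cell type. What drives the transgene is not given in the sources used here.

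For each replicate and for both pooled, the authors deposited a list of 30000 entries, here called peaks. Their label for the pooled list says that it holds peaks and background. They also deposited a set of 2031 pooled peaks, thresholded by a measure of reproducibility between replicates. Not each of its summits was matched, since 1941 of the 2031 had a summit within 100 bp in both replicate lists. Overlap of whole peaks between the lists was not computed. Each peak has a summit, its highest point, and a signal, which is the authors' own value with no stated scale. The thresholded set runs from a signal of 126 to 2068. A gene counted as holding a peak if any of its annotated transcription starts had a summit no more than 1 kb away, or, in the wider measure, inside the gene widened by 5 kb on each side. Read depth is unknown because the lists hold no read counts, and coordinates are those of the dm6 assembly.

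Of the 8 SOX domain genes, 5 had a thresholded summit within 1 kb of a start (62.5%): Sox14, Sox102F, Sox21a, Sox100B and D. Among all 13945 protein-coding genes 9.08% did. Counting the gene widened by 5 kb, Sox21b was added, so that 6 of 8 held a thresholded summit (75.0%), compared with 23.9% of protein-coding genes in general. The widened spans of the 8 genes run from 13.0 to 44.0 kb, and among protein-coding genes with a span in that range the share was 29.5%. At least 2 thresholded summits were held by 5 of the 8 (Sox102F, D, Sox21a, Sox21b and Sox100B), against 5.56% of all protein-coding genes and 7.95% of those in the same range of span. SoxN and Sox15 held none. Sox21a and Sox21b are neighbours and counted the same pair of summits, so the 6 genes held 9 distinct summits. No test was made of these counts, since the genes are few, share summits and were set against shares already known.

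**Figure D1:**
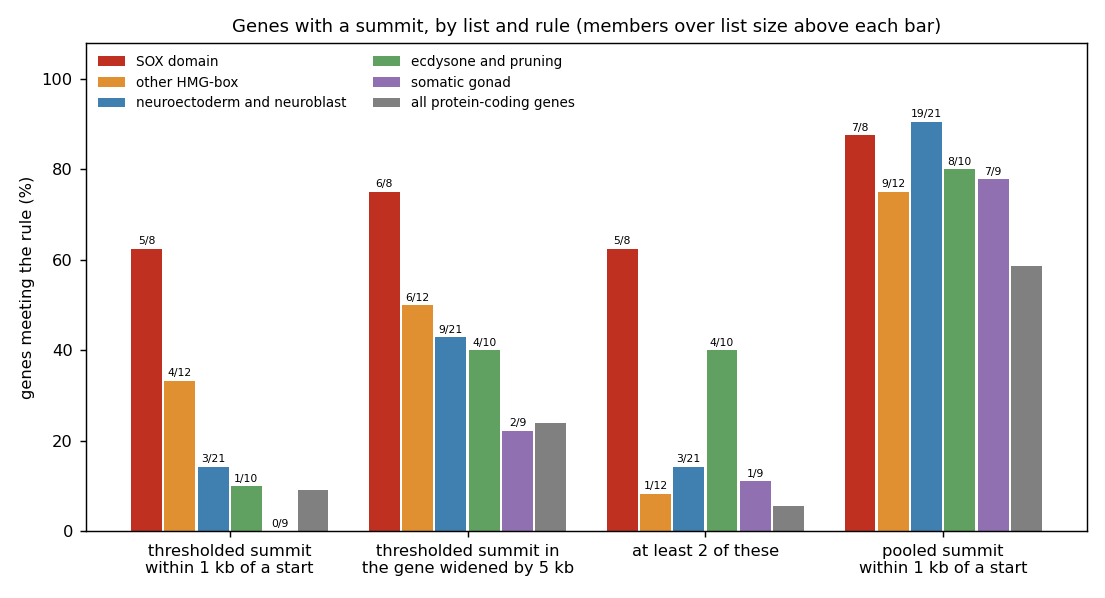
Percentage of genes that meet each of 4 rules (vertical axis) for the SOX domain genes, for 4 lists of related genes and for all protein-coding genes. The numbers above the bars are genes meeting the rule over genes in the list. SOX domain genes stand at 5 of 8 for a thresholded summit within 1 kb of a start, against 9.08% of all protein-coding genes.

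The summits were of middling strength. Their median signal was 178, against 181 for the whole thresholded set, and their ranks in it ran from 93 to 1876 with a median of 1052. Each held the same rank in the full pooled list. All 9 had a summit within 100 bp in each replicate list, as did 95.6% of the whole thresholded set. The threshold of that set was itself based on reproducibility between replicates. Their ranks there ran from 85 to 2127 in replicate 1 and from 116 to 2835 in replicate 2. In each replicate 7 of the 9 were among the 2031 highest peaks, against 83.6% of the whole set in replicate 1 and 81.0% in replicate 2. When the 2031 highest peaks of replicate 1 took the place of the thresholded set, 4 of the 8 genes had a summit within 1 kb of a start, against 8.99% of protein-coding genes. In replicate 2 it was 5 of 8, against 9.61%, but with SoxN in place of D. In the widened spans each replicate gave 7 of 8, against 23.9% in replicate 1 and 24.6% in replicate 2. The added gene was Sox15 in replicate 1 and SoxN in replicate 2.

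The full pooled list is much less selective and by its label includes background. It gave 7 of 8 genes a summit within 1 kb of a start, against 58.6% of protein-coding genes, and all 8 a summit in the widened span, against 89.7%. The 8 widened spans held 99 distinct pooled summits, of which 9 (9.09%) were thresholded, against 6.77% of the whole pooled list. For their length most of the genes were rich in pooled summits, counted whether or not they were matched in the replicates. Many of these summits had no match within 100 bp in replicate 1, in replicate 2 or in both. The density was 8.45 per 10 kb of widened span at D, 8.20 at Sox21a, 6.92 at Sox21b, 6.11 at Sox14, 5.91 at Sox102F and 5.70 at SoxN. The median over all protein-coding genes was 2.54. Each of these 6 genes had a density above that of at least 92.6% of protein-coding genes. The densities are not independent, since the spans of Sox21a and Sox21b overlap and share summits. Some summits counted at Sox14 and Sox21a lie closest to the starts of Phm and Fbp1. Sox15 (3.33) and Sox100B (3.20) had densities above 65.0% and 63.1% of them. Densities on the arms themselves run from 1.82 per 10 kb on X to 3.66 on chromosome 4, which carries Sox102F.

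**Figure D2:**
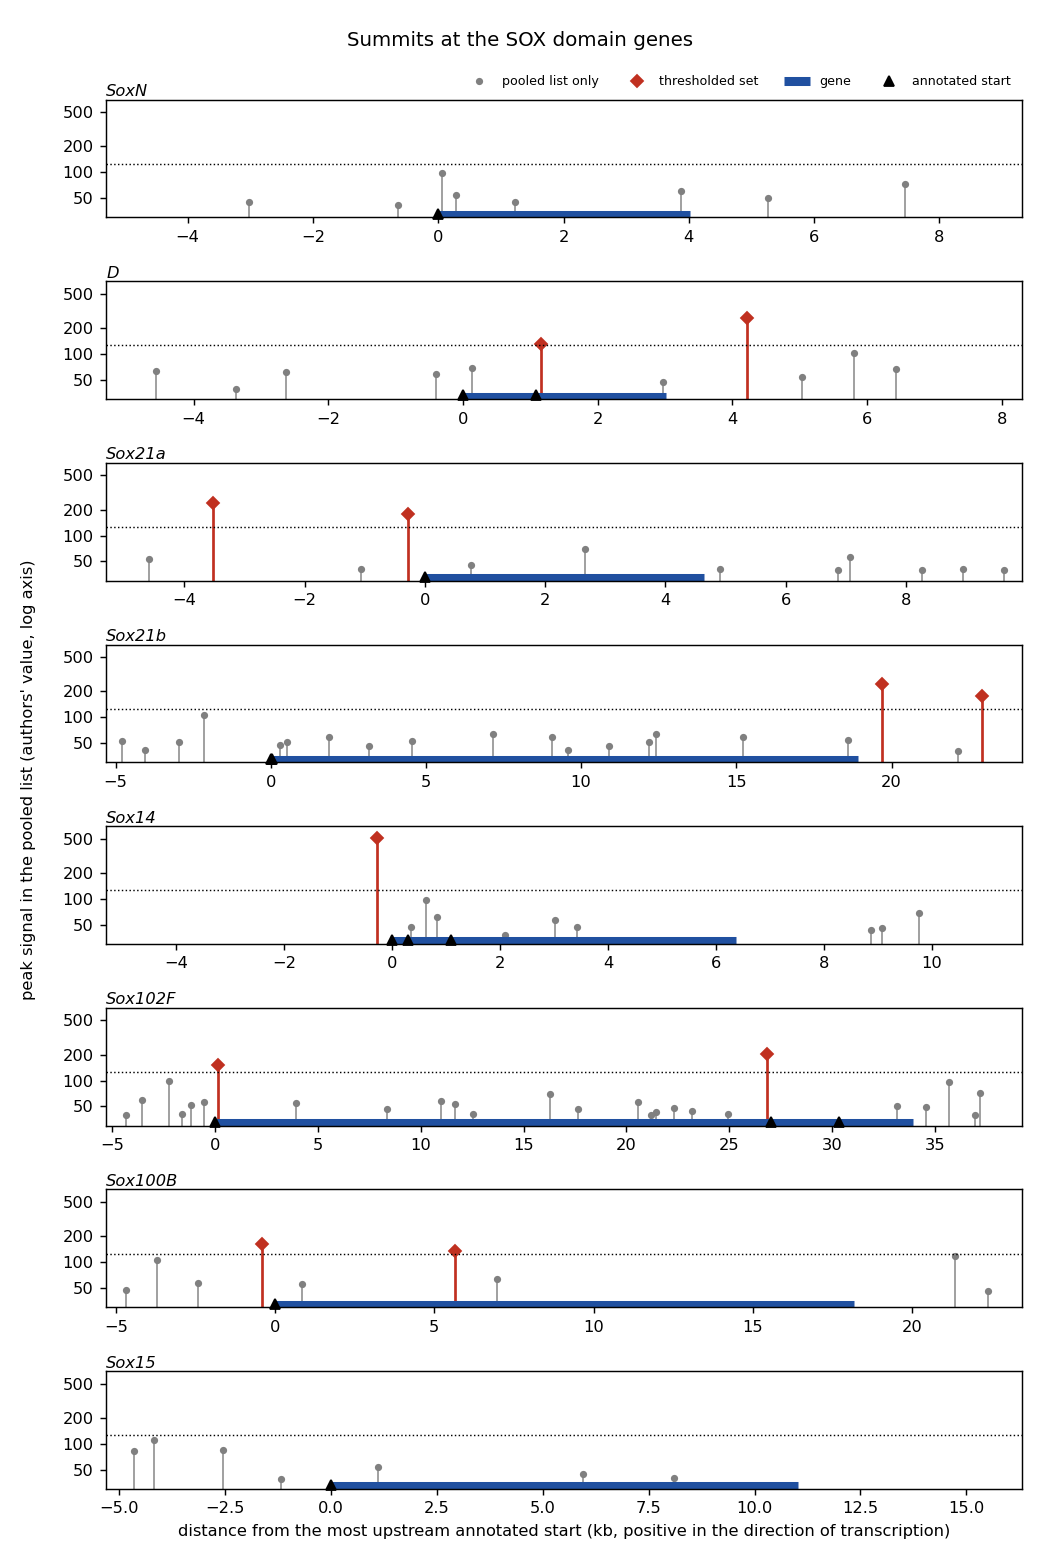
Summits at each of the 8 genes, by distance from the most upstream annotated start (horizontal axis, kb, positive in the direction of transcription) and peak signal (vertical axis, log). Red diamonds are thresholded summits, grey points are summits in the pooled list alone, blue bars are genes, triangles are annotated starts and the dotted line is the lowest thresholded signal, 126. SoxN and Sox15 have no red diamond, and the pair at Sox21b is the pair of Sox21a seen from the other side.

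SoxN is required for the formation of the neuroectoderm and its neuroblasts. It lies on the plus strand of 2L at 8825645 to 8829670 and has 1 annotated start. Its highest pooled summit lay 56 bp downstream of that start, in the 5' UTR, with a signal of 98.6 and rank 3288 in the pooled list. The replicates differed here. The matching summit ranked 10802 in replicate 1 (signal 38.4) and 1783 in replicate 2 (signal 61.1), so it is among the 2031 highest peaks of replicate 2 alone. Another pooled summit stood 278 bp downstream of the start (signal 53.8). It had a match in replicate 2, at rank 3809, and none within 100 bp in replicate 1. No thresholded summit lay within the widened span. The nearest one assigned to SoxN by closest start was intergenic, 16.8 kb downstream of the start at 2L 8842247 to 8842606. Its signal was 293 and its ranks were 391 in replicate 1 and 406 in replicate 2.

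D, Sox21a and Sox21b form a cluster on 3L, all on the minus strand. D acts in segmentation and in the nervous system. Sox21a is known in the adult gut, where it promotes differentiation of intestinal stem cell progeny. The gene order is Sox21a at 14103481 to 14108118, Sox21b at 14112405 to 14131324 and D at 14175610 to 14178620. Between Sox21a and Sox21b lie 4286 bp, and between Sox21b and D lie 44.3 kb. That longer stretch held 32 pooled summits, 7.23 per 10 kb, against 2.35 for the whole of 3L. It held 1 thresholded summit, the one just beyond the 3' end of D.

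The stronger summit of D lay outside the gene. It was 1208 bp past the 3' end, and the nearer start was 3135 bp away. Its signal was 264, at rank 486 of the thresholded set, and it ranked 482 in replicate 1 (signal 151) and 545 in replicate 2 (signal 111). The summit at D itself was in the 5' UTR, 72 bp downstream of the inner of its annotated starts. It had a signal of 131, close to the lowest of the set, at rank 1876. It ranked 2127 in replicate 1 (signal 73.5) and 2835 in replicate 2 (signal 48.5), outside the 2031 highest peaks of both. The count of D among genes with a peak at a start thus rests on the pooled data, while its distal summit stood high in each replicate.

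Sox21a had a summit 280 bp upstream of its start. The signal was 178, at rank 1052, and the ranks in the replicates were 1105 (signal 101) and 1096 (signal 77.5), nearly equal. A stronger summit stood 3526 bp upstream, in the gap to Sox21b and 761 bp from the 3' end of that gene. It had a signal of 242, at rank 589, and ranked 842 in replicate 1 (signal 116) and 383 in replicate 2 (signal 130). Both summits fall in the widened span of Sox21b too, but they lie 19653 and 22899 bp from its nearest start. At the start of Sox21b the highest pooled summit had a signal of 50.9 and rank 15509. Its highest summit upstream of the start was 2145 bp away, with a signal of 106, rank 5970 in replicate 1 and rank 3457 in replicate 2. By closest start, Sox21b held no thresholded summit.

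**Figure D3:**
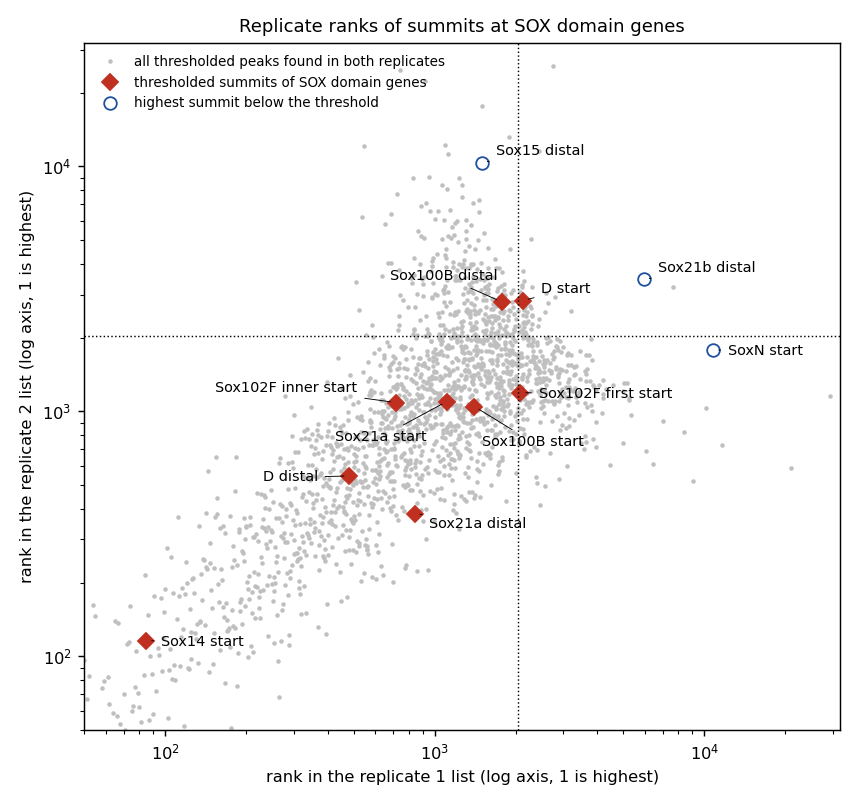
Rank in the replicate 1 list (horizontal axis, log) and in the replicate 2 list (vertical axis, log) for the 9 thresholded summits of SOX domain genes (red diamonds), for the highest summit below the threshold at SoxN, Sox15 and Sox21b, which have no thresholded summit within 1 kb of a start (blue circles) and for all thresholded peaks matched in both replicates (grey, with the strongest outside the plotted range). Dotted lines mark rank 2031. D at its start lies beyond both lines, and SoxN at its start lies beyond the line of replicate 1 only.

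Sox102F, of group D, is known from neurons and from wing development, and occupies 800436 to 834393 of chromosome 4, transcribed from the minus strand. It is the neighbour of fd102C, the gene of the tagged protein, whose 3' end is 2592 bp upstream of its first start. Its annotated starts are at 834393, 807347 and 804080, so shorter transcripts begin far inside the longest one. The stronger summit was at the inner start of 807347, 205 bp upstream of it and within an intron of the longest transcript. It had a signal of 202, at rank 821, and ranked 717 in replicate 1 (signal 125) and 1087 in replicate 2 (signal 78.0). The other was in the 5' UTR, 134 bp downstream of the first start, with a signal of 153. It ranked 2079 in replicate 1 (signal 74.1) and 1193 in replicate 2 (signal 74.5), and it also falls in the widened span of fd102C. The gene held 24 further pooled summits in its widened span, none with a signal above 98.0. On chromosome 4, a thresholded summit lay within 1 kb of a start for 9 of 80 protein-coding genes.

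Sox100B, of group E, is known for its part in the male somatic gonad. It lies on the plus strand of 3R at 31065253 to 31083407. A summit with a signal of 163 lay 424 bp upstream of its start, at rank 1229, and ranked 1402 in replicate 1 (signal 90.7) and 1047 in replicate 2 (signal 79.9). Another, with a signal of 135, lay in an intron 5642 bp downstream of the start. It ranked 1770 in replicate 1 (signal 80.7) and 2801 in replicate 2 (signal 48.8). The next summits were below the threshold. One, 3168 bp beyond the 3' end, had a signal of 118. One with a signal of 107, 3714 bp upstream, was 329 bp from a start of dco, which encodes a casein kinase. The upstream summit of Sox100B falls in the widened span of dco as well.

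The windows of 100 bp on each side of a summit are shown for 5 thresholded summits that lie outside annotated exons. They show the fork head and SOX sites held at this width. Sequences are from the RefSeq copy of the same assembly, on the strand of the gene, 5' to 3'. Capitals mark the letters of a fork head site (ATAAACA or else ATAAATA, and likewise GTAAACA or else GTAAATA, on either strand) or of a SOX site (AACAAT or ACAAAG on either strand). The summit is base 101 of each.
D beyond the 3' end, chr3L:14174302-14174502, minus strand: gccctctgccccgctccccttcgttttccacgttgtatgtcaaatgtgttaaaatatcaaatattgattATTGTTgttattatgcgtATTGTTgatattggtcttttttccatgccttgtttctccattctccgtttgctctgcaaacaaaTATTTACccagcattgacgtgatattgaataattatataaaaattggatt
Sox21a upstream of the start, chr3L:14108298-14108498, minus strand: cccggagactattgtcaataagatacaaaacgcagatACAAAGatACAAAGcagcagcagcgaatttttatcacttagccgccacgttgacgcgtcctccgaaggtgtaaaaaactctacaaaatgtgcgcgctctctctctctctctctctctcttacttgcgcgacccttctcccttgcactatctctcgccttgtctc
Sox21a in the gap to Sox21b, chr3L:14111544-14111744, minus strand: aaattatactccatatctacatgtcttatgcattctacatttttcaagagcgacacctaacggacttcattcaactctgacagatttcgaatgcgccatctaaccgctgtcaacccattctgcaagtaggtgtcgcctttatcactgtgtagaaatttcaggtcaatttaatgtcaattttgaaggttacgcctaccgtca
Sox102F at the inner start, chr4:807452-807652, minus strand: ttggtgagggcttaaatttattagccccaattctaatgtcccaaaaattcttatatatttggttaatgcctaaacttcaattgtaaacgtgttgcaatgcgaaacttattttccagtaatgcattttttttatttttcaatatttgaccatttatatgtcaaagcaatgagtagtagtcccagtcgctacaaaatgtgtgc
Sox100B intron, chr3R:31070795-31070995, plus strand: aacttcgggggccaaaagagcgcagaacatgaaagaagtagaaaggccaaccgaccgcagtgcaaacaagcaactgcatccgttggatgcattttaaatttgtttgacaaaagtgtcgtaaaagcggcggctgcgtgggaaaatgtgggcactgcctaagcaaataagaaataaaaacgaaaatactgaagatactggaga

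Of these 5 windows, 1 held a fork head site, that of D, where GTAAATA on the opposite strand was centred 54 bp from the summit. The same window held AACAAT on the opposite strand at bases 70 to 75 and 88 to 93. The window upstream of Sox21a held ACAAAG at bases 38 to 43 and 46 to 51. It also holds a run of CT repeats on the downstream side of the summit, in which GAGAG, the core of the GAGA factor site, was matched on the opposite strand from base 133 on. The other 3 windows held neither kind of site. A match is a run of letters and does not show that a protein sits there.

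Over all 9 thresholded summits of SOX domain genes, the ones not printed included, 1 window (11.1%) held a fork head site. The share was 43.1% over the 2031 thresholded summits, 41.5% over the 979 of them within 1 kb of a start of a protein-coding gene and 44.6% over the rest. None of the 6 summits within 1 kb of a SOX gene start had such a site. GTAAACA alone was in none of the 9, against 9.90% of all thresholded windows. Among the 90 other pooled summits of the genes 18 (20.0%) held a fork head site, against 30.4% of all pooled summits. The low count depends on the window. With 150 bp on each side it was 4 of 9, against 53.5%, and with 250 bp, a width chosen after seeing the data, it was 6 of 9, against 66.2%. It was still 6 of 9 at 500 bp, where 82.2% of all thresholded summits had a site. The 9 windows had a median GC content of 39.8%, against 37.3% for all thresholded windows, and the part of base composition in the count was not tested.

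**Figure D4:**
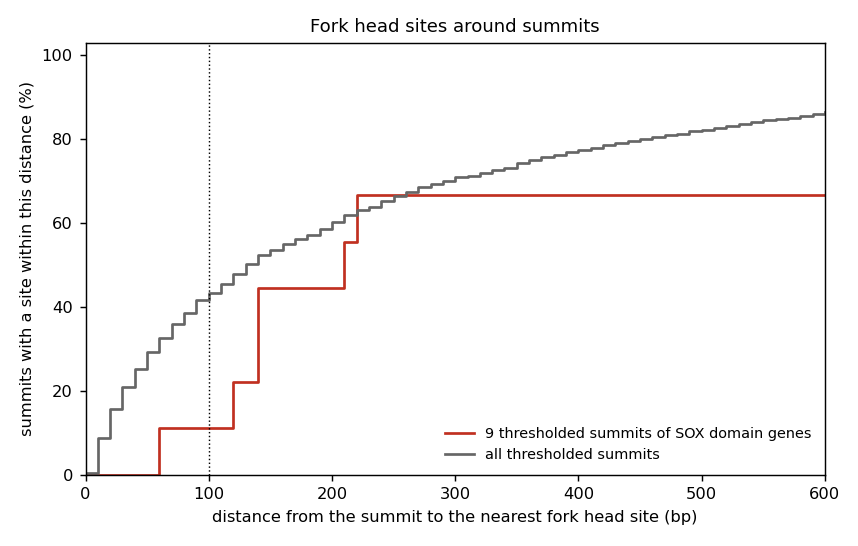
Percentage of summits with a fork head site within a given distance of the summit (vertical axis) by that distance (horizontal axis, bp), for the 9 thresholded summits of SOX domain genes (red) and all 2031 (grey). The dotted line is at 100 bp. The red line lies below the grey one at 100 bp, with 1 of 9 summits, passes just above it at 220 bp, with 6 of 9 (66.7% against 63.0%), and stays at 6 of 9 below it from 260 bp on (66.7% against 86.5% at 600 bp).

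The nearest fork head site was measured from each summit. It was 54 bp away at D beyond its 3' end, 116 bp at Sox21a in the gap, 137 bp at the start of Sox21a, and 140 bp in the intron of Sox100B. It was 207 bp away upstream of Sox100B and 219 bp at Sox14. At Sox102F (678 bp at the first start and 822 bp at the inner one) and at the start of D (937 bp) it was farthest. The median was 207 bp over the 9 and 130 bp over all thresholded summits. A SOX site, AACAAT or ACAAAG, was in 3 of 9 windows (33.3%), against 34.0% of all thresholded windows. GAGAG on either strand was in 1 of 9 (11.1%), against 27.0%.

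Sox14, of group C, is induced by ecdysone at metamorphosis and is required for pruning of sensory neuron dendrites. It had the strongest summit of the family, in intergenic sequence 280 bp upstream of its first start, at 2R 23978434 to 23978639. The signal was 505, at rank 93 of the thresholded set, and it ranked 85 in replicate 1 (signal 301) and 116 in replicate 2 (signal 203). The next summit of the family, at D, was at rank 486. The Sox14 summit also falls in the widened spans of mr and PPP1R15, with Sox14 the closest start. The gene lies on the plus strand at 23978801 to 23985177 with 3 annotated starts. Within 1 kb of these were 4 further pooled summits, the highest 333 bp downstream of a start with a signal of 95.9, rank 5265 in replicate 1 and rank 4092 in replicate 2.

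Sox15, of group F, is known from the wing hinge and from the socket cells of sensory bristles, and lies on the minus strand of 2R at 14201390 to 14212413. It was the one SOX domain gene with no pooled summit within 1 kb of a start. Replicate 1 alone had one there, 500 bp upstream, at rank 18785. The 3 highest pooled summits in its widened span had RpS23, a ribosomal protein gene, as the closest start. The highest of them, with a signal of 110, was 6 bp from a start of RpS23 and 4171 bp from that of Sox15. It ranked 1497 in replicate 1 (signal 87.7) and 10366 in replicate 2 (signal 28.5), which is why Sox15 was counted in replicate 1. Of the 7 pooled summits in the widened span, 3 lay inside Sox15, with signals of 54.0, 44.1 and 40.0, and 1 lay 1183 bp upstream of its start, with a signal of 38.7.

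Of the 6 thresholded summits within 1 kb of a SOX gene start, 4 were upstream of the closest start (Sox14, Sox21a, Sox100B and the inner start of Sox102F) and 2 downstream (D and the first start of Sox102F). Over all thresholded summits within 1 kb of a start of a protein-coding gene, 708 of 979 (72.3%) were upstream. The other 3 summits of the family were distal, at 3135 bp for D, 3526 bp for Sox21a and 5642 bp for Sox100B.

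Genes related to the SOX family were counted by the same rules. Of 12 other HMG-box genes, 4 had a thresholded summit within 1 kb of a start, against 5 of 8 SOX domain genes and 9.08% of protein-coding genes. They were HmgZ, which encodes a chromosomal HMG protein (signal 291), Dsp1, which encodes a cofactor of Dorsal (signal 216), bbx (signal 169) and cic, which encodes a repressor downstream of receptor tyrosine kinases (signal 155). In the widened spans 6 of 12 held one, against 23.9% of protein-coding genes, with HmgD and pan, the nuclear effector of Wnt signalling, added. HmgD and HmgZ counted the same summit, at rank 384.

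Of 21 genes acting beside SoxN and D in the neuroectoderm and its neuroblasts, 3 had a thresholded summit within 1 kb of a start. This was 14.3%, against 9.08% of protein-coding genes. The 3 were pros, which is inherited by ganglion mother cells (signal 186), grh (signal 135) and vnd, a dorsoventral patterning gene (signal 126). The widened spans of 9 of the 21 held one, against 23.9% of protein-coding genes. Of 10 ecdysone and pruning genes around Sox14, Eip75B alone (10%) had a thresholded summit within 1 kb of a start (signal 169). In the widened span 4 held one (40%). Of 9 somatic gonad genes around Sox100B none had one at a start, and Abd-B and zfh1 held one in the widened span (22.2%). Over all protein-coding genes the shares were 9.08% at starts and 23.9% in spans. The gonad counts, and the neuroectoderm and ecdysone counts at starts, were near these shares. Span counts of the comparison lists were not corrected for length or set against genes of a like span. In the full pooled list 9 of 12, 19 of 21, 8 of 10 and 7 of 9 genes of these lists had a summit within 1 kb of a start, against 58.6% of protein-coding genes.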

How the data were processed

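ChIP-seq of fd102C with GFP was analysed in 2 biological replicates of whole embryos. The deposited lists give a signal for each peak, with no stated scale, and a −log10 q-value, used here only to break ties in rank. Notes deposited with the files say that the authors made 1 list per replicate and 1 from both together, each against a control that is not analysed here. Aligner, peak caller and threshold were not given in the sources used here.

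Starts and gene spans were those of Ensembl release 115 on dm6, leaving out transposable elements (18164 genes). Symbols of all 8 genes and of the comparison lists were matched directly. A thresholded summit was matched to the nearest replicate summit within 100 bp. Work was done in Python 3.11.15 with pandas 2.3.3. Counting was tested on simulated data with 200 planted summits, of which 200 were recovered. The genes and lists were chosen with earlier results of these data known. Named are the 8 genes, genes that share or lie closest to their summits, and list genes with a thresholded summit at a start, 6 at most per list by signal. The genes pan, HmgD, Hr4, Abd-B and zfh1 were named after their values were seen. Alternatives were other windows, spans and peak sets, and each replicate alone. Peaks and genes are not replicates. The sequences of 1 window of Sox100B and of the window of Sox14 are not reported here.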

Additional observations from a re-analysis of the deposited data

How the results depend on the processing

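The count of genes with a thresholded summit within 1 kb of a start was 5 of 8 with a window of 500 bp (against 7.70% of protein-coding genes), a window of 2 kb (11.8%), protein-coding transcripts alone (9.08%) and any overlap of the peak (9.54%). It was 4 without replicate 2 (8.99%) and 5 without replicate 1 (9.61%), with D lost in both. In the 1016 highest thresholded peaks it was 2, Sox14 and Sox102F (4.47%). In the span the count was 6 of 8 when widened by 2 kb (16.1%) or 10 kb (34.3%), 7 without replicate 1 (24.6%) or replicate 2 (23.9%), and 3 in genes not widened (5.92%). The distinct summits numbered 8 with either replicate left out, 4 in genes not widened, 4 in the 1016 highest peaks and 10 by nearest start. Pooled counts at starts were 7 without replicate 1 (58.6%) and 8 without replicate 2 (57.4%). In spans they were 8 with either left out (90.2% and 91.0%), and these span counts were near the share of all genes. Fork head sites were in 0 of 9 windows with 50 bp on each side (28.1% of all thresholded summits), in 4 with 150 bp (53.5%) and in 0 for GTAAACA alone (9.90%). In alternatives chosen after seeing the data they were in 6 with 250 bp (66.2%) and in 3 with sites of 6 letters (66.3%). Wider windows hold more sites by construction. Of 216 gene by gene values, 147 were within 1.5 times the value reported and 69 were not. No paired analysis was possible because the samples form 1 group. Without read counts, what depth limits is unknown.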

Other observations

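Several genes of the comparison lists held more thresholded summits in their widened spans than any SOX domain gene, whose highest count was 2. Eip75B, an ecdysone-induced nuclear receptor gene, and pros each held 6, cic held 5 and Hr4, another nuclear receptor gene, held 4. Most of these lay away from starts, since Eip75B, pros and cic each had 1 summit within 1 kb of a start and Hr4 had none. The highest signals in the spans were 272 for Eip75B, 385 for pros, 433 for cic and 484 for Hr4. Counts were not corrected for length.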
